A study of Mus musculus with 68 samples.

Results

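The unfolded protein and amino acid response was followed across heart, lung, kidney and liver of mice given epidermal growth factor (Egf), as 33 genes chosen by symbol from a table of 56748 genes. The chaperone arm holds 23 of them: the transducers and transcription factors Xbp1, Atf6 and Ern1; the degradation components Herpud1, Syvn1, Sel1l, Edem1, Derl1 and Derl3; the chaperones and co-chaperones Hspa5, Hsp90b1, Hyou1, Calr, Canx, Dnajb9, Dnajc3, Dnajb11 and Sdf2l1; the disulfide isomerases Pdia3, Pdia4 and Pdia6; and the small proteins Creld2 and Manf. The Atf4 arm holds 10: the kinase Eif2ak3, the factors Atf4 and Ddit3, the regulators Trib3, Ppp1r15a, Sesn2 and Chac1, and the biosynthetic enzymes Asns, Psat1 and Phgdh. All 33 had reads and passed the filter on low counts in heart, lung and kidney, and all but Phgdh passed it in liver.

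The mice were wild-type C57BL/6J females aged 10 weeks. One group received Egf at 1 mg/kg in phosphate-buffered saline (PBS) by injection behind the eye, and a vehicle group received 50 to 60 µL of PBS the same way. Isoflurane anaesthesia was used for all injections, and organs were taken 2 or 6 h later. Per organ, Egf is represented by 4 libraries and vehicle by 3 at 2 h and again at 6 h, with a further 3 from untreated mice, which makes 68 libraries in 20 groups. No allele or transgene distinguishes the groups. The untreated mice differ from the vehicle mice by the injection, the anaesthesia and the 2 or 6 h that followed, which cannot be told apart. The labels do not say which organs came from the same mouse, and they do not describe the replicates further, so p-values measure the spread between these samples. Sample names carry the same number for a given group and replicate in every organ, so the organs may come from the same mice. Tests among organs treat all 68 libraries as independent, and agreement between organs may not come from separate animals.

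Proteins that enter the endoplasmic reticulum are folded there by chaperones and disulfide isomerases. When unfolded proteins build up, 3 membrane sensors respond: Ern1 (IRE1) splices the mRNA of Xbp1 into the form that encodes an active factor, Atf6 is cut to release a factor, and Eif2ak3 (PERK) phosphorylates the initiation factor eIF2. Xbp1 and Atf6 act on genes of folding and of degradation from the reticulum, and phosphorylated eIF2 favours translation of Atf4, which acts on genes of amino acid supply and stress. The same Atf4 branch answers to a lack of amino acids through the kinase Eif2ak4 (GCN2). Liver secretes most plasma proteins and depends on this folding machinery. Counts per gene do not separate spliced from unspliced Xbp1, and they do not show translation of Atf4, so only the amount of mRNA is described here.

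The sequences below show the promoter elements by which the 2 arms are usually recognised. RefSeq windows (GRCm38.p6, 250 bases before to 50 after each gene's start, 300 bases) matched 29 of the 33 genes by symbol, and there was no entry for Atf6, Derl1, Hyou1 or Manf. The endoplasmic reticulum stress element ERSE was searched as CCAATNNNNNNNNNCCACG and ERSE-II as ATTGGNCCACG, both strands, exact letters. ERSE was found in 9 of 19 chaperone-arm windows and 0 of 10 Atf4-arm windows, against 0.137% of the 27025 genes with a window. ERSE-II was found in Dnajb11 and Herpud1, against 0.0444% of all. In the lines that follow, the capitals mark the fixed letters, each sequence is read on the strand that holds the motif, and the number after the gene is the position of the match's first base along the gene, counted from the start of transcription.
Hspa5, -65, chr2:34772025-34772043, gene's own strand: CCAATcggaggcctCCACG
Hsp90b1, -212, chr10:86705638-86705656, gene's own strand: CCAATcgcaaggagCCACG
Hsp90b1, -107, chr10:86705533-86705551, opposite strand: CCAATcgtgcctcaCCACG
Calr, -162, chr8:84847075-84847093, opposite strand: CCAATgagggtcgaCCACG
Canx, -145, chr11:50325800-50325818, gene's own strand: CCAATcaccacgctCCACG
Pdia6, -98, chr12:17266491-17266509, gene's own strand: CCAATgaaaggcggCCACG
Dnajc3, -105, chr14:118937827-118937845, gene's own strand: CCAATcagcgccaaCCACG
Creld2, -126, chr15:88819520-88819538, opposite strand: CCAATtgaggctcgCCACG
Syvn1, -44, chr19:6046532-6046550, gene's own strand: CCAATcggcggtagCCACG
Derl3, -156, chr10:75893242-75893260, opposite strand: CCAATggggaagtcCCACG
Herpud1 ERSE-II, -52, chr8:94386377-94386387, gene's own strand: ATTGGgCCACG
Dnajb11 ERSE-II, 8, chr16:22857852-22857862, gene's own strand: ATTGGcCCACG

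The element bound by Atf4 with its C/EBP partners (CARE) was searched as TGATGNAA on both strands and is common, with a match in 4.51% of all windows. It was present in Asns as TGATGaAA, in Chac1 as TGATGcAA and in Trib3 as TGATGtAA, and in 1 chaperone-arm gene, Herpud1, as TGATGcAA on the opposite strand at -112. The cyclic AMP element TGACGTCA was in Ppp1r15a, against 2.03% of all windows, and the core TGACGTGG, present in 0.714% of all, was in no member. No match of one motif overlapped a match of another in these genes. Herpud1 and Xbp1 are the genes on which the results turn, and their 250 bases before the start are given whole. Herpud1 holds a CARE match, read here as its complement, and the ERSE-II match, both in capitals. Xbp1 has none of the 5 motifs in its window, which says only that these letters are not there.
Herpud1, chr8:94386179-94386428, plus strand: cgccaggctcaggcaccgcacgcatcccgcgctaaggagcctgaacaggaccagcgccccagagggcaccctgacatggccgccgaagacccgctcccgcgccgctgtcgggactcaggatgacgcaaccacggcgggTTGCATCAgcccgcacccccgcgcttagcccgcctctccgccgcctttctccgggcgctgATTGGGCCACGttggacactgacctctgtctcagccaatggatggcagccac
Xbp1, chr11:5520391-5520640, plus strand: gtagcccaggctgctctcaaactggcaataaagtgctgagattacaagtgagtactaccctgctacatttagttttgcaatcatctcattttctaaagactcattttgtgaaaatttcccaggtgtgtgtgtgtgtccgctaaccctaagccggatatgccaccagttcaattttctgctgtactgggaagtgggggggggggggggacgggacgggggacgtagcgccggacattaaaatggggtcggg

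The deposited counts came to between 13271813 and 24972005 reads per library with a median of 17759346, and levels are given as CPM, counts scaled to a library's effective total. Each organ carried its own markers: the summed level was 32410 to 46746 CPM for cardiomyocyte markers in heart, 45131 to 65110 CPM for alveolar and airway markers in lung, 18878 to 25291 CPM for tubule markers in kidney and 100570 to 135444 CPM for hepatocyte markers in liver. In 8 libraries, 7 of heart and 1 of lung, markers of another of the 4 organs reached at least 500 CPM and 10 times the organ's median. They include all 3 untreated heart libraries, replicates 1 and 3 by hepatocyte markers (15539 and 13396 CPM) and replicate 2 by kidney tubule markers (1081 CPM, with hepatocyte markers at 1169 CPM), and Egf 6 h replicate 3 of lung (27314 CPM). Heart libraries below these limits could also hold hepatocyte markers, as Egf 2 h replicate 3 at 9452 CPM and Egf 6 h replicate 2 at 5817 CPM. Liver and kidney had no library past the limits, and 1 liver library, vehicle 2 h replicate 2, stood apart with 0.0126% of reads on 18S ribosomal RNA against a liver median of 2.98%. Markers of plasma cells and of the exocrine pancreas, cells with abundant endoplasmic reticulum, summed to at most 131 and 10.6 CPM in any library. Adrenal cortex markers reached 178 CPM in liver Egf 2 h replicate 1 and at most 62.2 CPM elsewhere, adipocyte markers were highest in heart (up to 1248 CPM), and erythroid markers ranged from 168 to 16639 CPM over all libraries.

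In liver 2 h after Egf, 2 of the 23 chaperone-arm genes passed the test, in opposite directions: Xbp1 mRNA rose and Herpud1 mRNA fell. Xbp1 encodes the factor of the Ern1 branch. Its gene, ENSMUSG00000020484, lies at chr11:5470659-5475893 on the plus strand of mm39, the build of the deposited table. The Egf libraries stood at 699, 735, 843 and 891 CPM and the vehicle libraries at 310, 331 and 203 CPM. All 4 Egf libraries were above all vehicle libraries and above the untreated ones, which stood at 353, 268 and 247 CPM. The ratio of the group means was 2.82, and the fitted log2 difference was 1.49 ± 0.23 (SE; adjusted p = 0.000518, edgeR quasi-likelihood test). It remained past the threshold without any 1 of the 7 libraries, between 1.31 and 1.63. In these bulk samples, a change in the share of a cell type and a change in RNA per cell cannot be told apart.

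Herpud1 encodes a membrane protein of the complex that takes misfolded proteins out of the reticulum for degradation (ENSMUSG00000031770, chr8:95113066-95122005, plus strand, mm39). Its Egf libraries stood at 331, 354, 367 and 366 CPM and its vehicle libraries at 605, 730 and 648 CPM, with no overlap. The untreated livers stood lower than both groups, at 292, 303 and 233 CPM, so that the vehicle group was the highest of the 3; Egf against untreated was not tested. The Egf mean was 0.536 of the vehicle mean, with a log2 difference of -0.90 ± 0.18 (SE; adjusted p = 0.0059, edgeR), and leaving out any 1 library gave -0.96 to -0.82, all past the threshold. As background, 3.92% of the 13592 genes tested in liver were called at 2 h, 1.95% higher and 1.97% lower. Xbp1 is thus 1 gene among the former and Herpud1 1 among the latter. Summed neutrophil markers were 2.21 to 8.01 CPM in the Egf and 0.712 to 1.96 CPM in the vehicle livers, with 5 of 6 markers detected and Ly6g at 0. Summed plasma cell markers, 5 of 5 detected, were 2.15 to 4.36 and 4.24 to 18.2 CPM. Their part in the result was not tested.

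**Figure D1:**
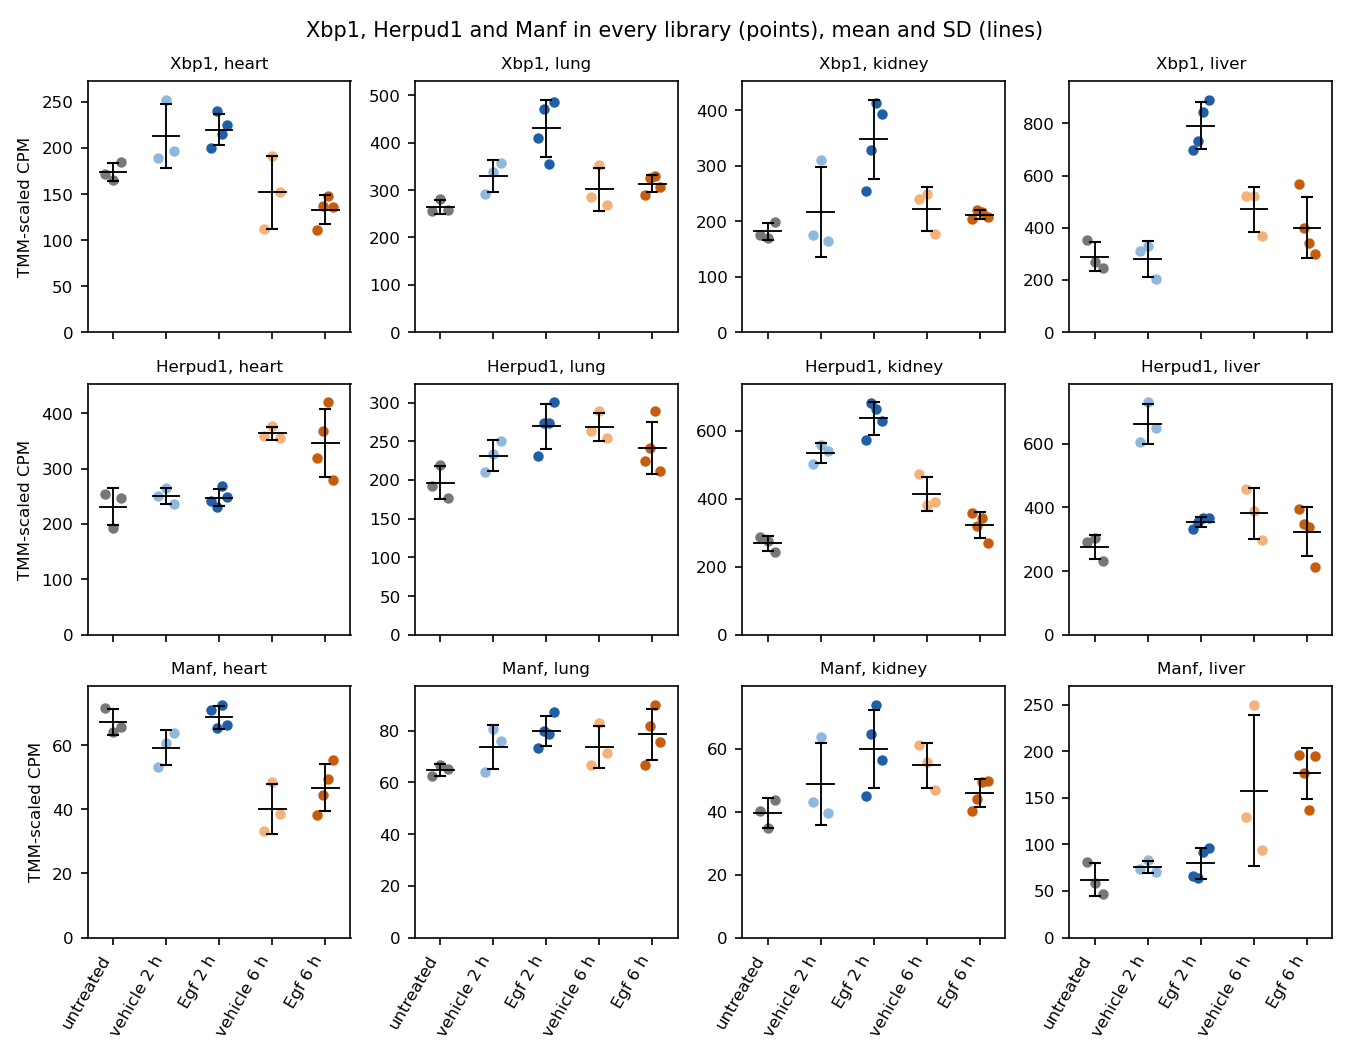
Level of Xbp1, Herpud1 and Manf in every library, in CPM, by organ and group. Points are libraries, with the group's mean and SD; in liver the Xbp1 points of Egf 2 h sit between 699 and 891 CPM and its vehicle points between 203 and 331 CPM, while for Herpud1 the vehicle 2 h points lie above all others.

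The other 21 chaperone-arm genes of the liver at 2 h did not pass. Of the 23, 12 had a positive and 11 a negative log2 difference, with a median of 0.04 against -0.02 over all genes tested. Egf replicate 1 was the lowest of its group in 14 of the 23 and the highest in 0, against 28.1% and 24.4% of all genes. Replicate 4 was the highest in 12 and the lowest in 0, against 24% and 22.8%. The part of these libraries in the values was not tested. Among the transducers, Ern1 stood at 0.07 ± 0.17 and Atf6 at -0.30 ± 0.19 (log2, SE). Among the degradation genes, the ubiquitin ligase Syvn1 (HRD1) stood at -0.51 ± 0.21 (adjusted p = 0.232, edgeR), its partner Sel1l at -0.11 ± 0.17, the mannosidase-like Edem1 at -0.15 ± 0.16, and the membrane proteins Derl1 and Derl3 at 0.11 ± 0.17 and 1.24 ± 0.66. Derl3 stood at 8.575 CPM in Egf replicate 2 and at 1.827 to 2.825 CPM in the other Egf libraries. Syvn1 levels did not overlap: 14.9, 17.9, 22.9 and 21.0 CPM with Egf against 32.4, 25.6 and 23.9 CPM with vehicle. The chaperone Hspa5 (BiP), the central sensor-binding chaperone, spanned 573, 659, 1039 and 1061 CPM with Egf around vehicle values of 715, 639 and 620 CPM, a log2 difference of 0.34 ± 0.20 (adjusted p = 0.492, edgeR). The 2 lower Egf libraries lay within or below the vehicle range and the other two above it. Dnajb9, a co-chaperone that represses Ern1, stood at 0.53 ± 0.27, Hsp90b1 at -0.37 ± 0.23 and Pdia4 at -0.33 ± 0.22. The remaining 10 genes, Calr, Canx, Pdia3, Pdia6, Dnajc3, Dnajb11, Sdf2l1, Creld2, Manf and Hyou1, lay between -0.21 and 0.16.

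At 6 h neither gene passed the test in liver. Xbp1 stood at 568, 398, 341 and 298 CPM with Egf and at 520, 522 and 370 CPM with vehicle, a log2 difference of -0.23 ± 0.22 (SE; adjusted p = 0.738, edgeR). The Egf effect on Xbp1 itself changed between the times, by -1.72 ± 0.31 (log2, 6 h minus 2 h; adjusted p = 0.00665, edgeR), against 1.03% of genes called in this test and 0.456% called lower. It kept that call in all 14 fits that left out a library. Herpud1 stood at 395, 348, 339 and 213 CPM with Egf and 457, 388 and 299 CPM with vehicle at 6 h, which overlapped. No member passed in liver at 6 h, where 0.0883% of genes were called. In edgeR 3 chaperone-arm genes had an unadjusted p under 0.05, all with positive differences, and DESeq2 called 0. Over all genes 1160 of 13592 had such a p. The 3 members were Dnajb9 (0.62 ± 0.27), Syvn1 (0.53 ± 0.21) and Ern1 (0.40 ± 0.17).

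In the other 3 organs no chaperone-arm gene passed at either time. At 2 h, Xbp1 stood at 0.68 ± 0.20 in kidney (adjusted p = 0.247), 0.39 ± 0.12 in lung (adjusted p = 0.216) and 0.05 ± 0.16 in heart (edgeR, log2, SE). The kidney libraries were at 256, 330, 414 and 394 CPM with Egf and 176, 311 and 165 CPM with vehicle. The lung libraries were at 411, 472, 355 and 486 CPM with Egf and 292, 337 and 358 CPM with vehicle. In each of these 2 organs 1 library made the groups overlap, vehicle replicate 2 in kidney and Egf replicate 3 in lung. DESeq2 called Xbp1 in lung, its 1 call in the chaperone arm outside liver at 2 h (adjusted p = 0.05, just under the threshold before rounding). Herpud1 stood at 0.25 ± 0.11 in kidney, 0.22 ± 0.12 in lung and -0.02 ± 0.13 in heart, where in liver it fell.

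A test of whether the Egf effect at 2 h differed among the 4 organs called 3 members, Herpud1 (F = 14.9, adjusted p = 0.000137), Xbp1 (F = 11.3, adjusted p = 0.00148) and Sesn2 (F = 7.83, adjusted p = 0.0154; edgeR, all 68 libraries), where 2.19% of 18736 genes were called. Each call was lost when a replicate number was left out in every group: Herpud1 without replicate 2 (adjusted p = 0.0678) and Xbp1 without replicate 3 (adjusted p = 0.0646). For Sesn2, a stress-inducible regulator of nutrient signalling, the effect was negative in heart (-0.997 ± 0.38) and liver (-0.64 ± 0.29) and positive in kidney (0.64 ± 0.14) and lung (0.14 ± 0.13). The heart value rests on vehicle 2 h replicate 1, at 13.8 CPM beside 4.07 and 3.64 CPM, a library with 2870 CPM of kidney tubule markers. Without the 8 libraries that hold another organ, Sesn2 no longer passed (adjusted p = 0.0534), and it did not pass without replicate 1 (0.159), 2 (0.161) or 4 (0.0909). At 6 h, 0.048% of genes and no member differed among organs, and the smallest member p was that of Ddit3 (unadjusted p = 0.00157, adjusted p = 0.326).

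**Figure D2:**
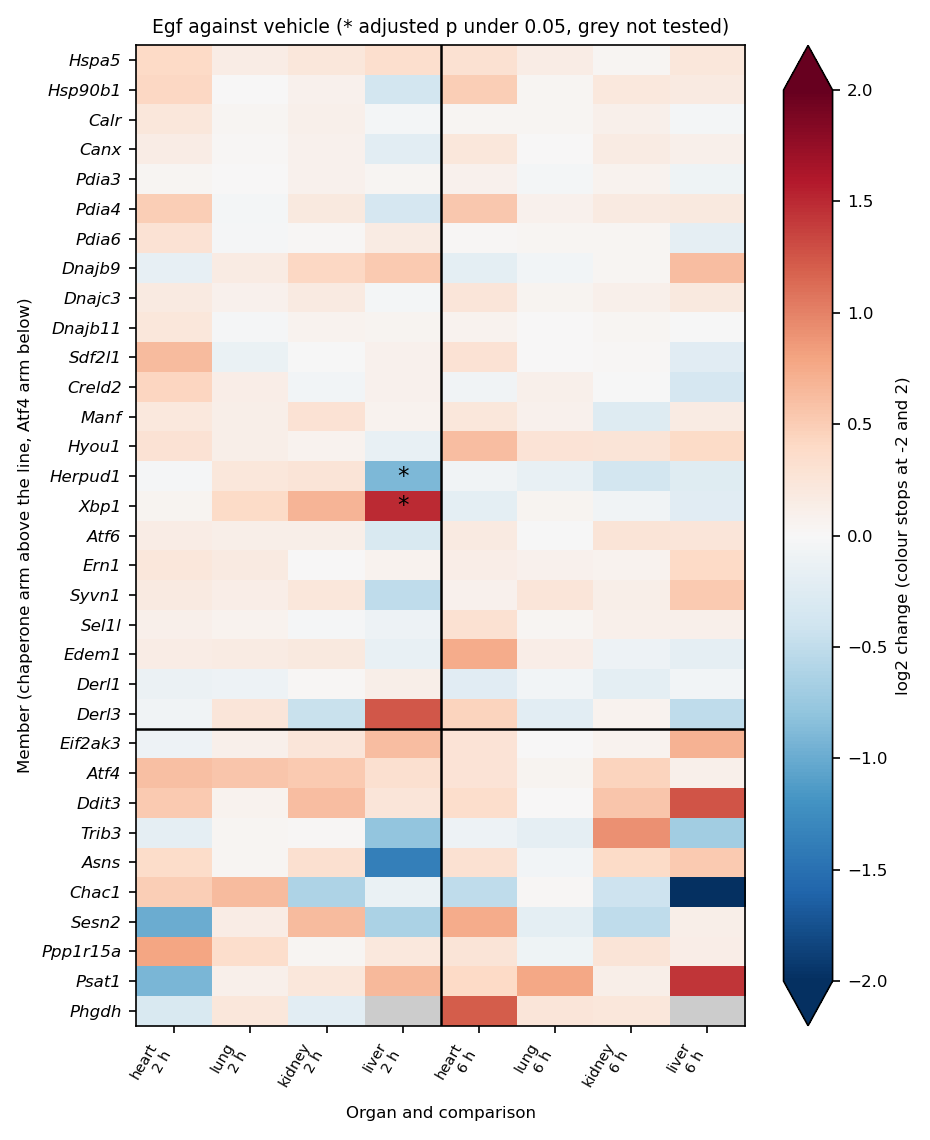
Log2 difference, Egf minus vehicle, of the 33 genes (rows, by arm) in the 4 organs at 2 h and then 6 h (columns); the colour scale stops at 2 in either direction, stars mark an adjusted p under 0.05 and grey a gene that was not tested. The 2 stars are Xbp1 and Herpud1 in liver at 2 h, in opposite colours.

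In heart at 2 h, 19 chaperone-arm genes had a positive and 4 a negative log2 difference, with a median of 0.19 against -0.02 over all genes, but none passed, where 0.211% of genes were called. With edgeR 4 had an unadjusted p under 0.05, Creld2 (0.42 ± 0.14), Sdf2l1 (0.63 ± 0.22), Dnajb11 (0.23 ± 0.10) and Pdia6 (0.28 ± 0.13), and DESeq2 called 0. Over all genes 1193 of 15618 had such a p. Hepatocyte markers were 1032, 84.7, 9452 and 78.4 CPM in the Egf hearts and 38.4 to 99.0 CPM in the vehicle hearts. Egf replicate 3, at 9452 CPM, was the highest of its group in 13 of the 23 genes against 30.4% of all genes. Vehicle replicate 2 was the lowest of its group in 14 of the 23, against 39% of all genes. The part of these libraries in the result was not tested. The mitochondrial share of reads was 12.0 to 16.0% with Egf and 17.3 to 20.1% with vehicle, and the 18S share 1.01 to 1.66% and 0.537 to 0.803%, both without overlap; their part in the result was not tested. Creld2, a folding factor of the reticulum, stood at 23.1, 21.3, 23.3 and 17.7 CPM with Egf against 13.6, 16.4 and 17.7 CPM with vehicle, which touched at 1 library. Sdf2l1, a partner of Hspa5, stood at 22.5, 15.9, 18.1 and 17.4 CPM against 13.6, 12.4 and 9.73 CPM, which did not overlap. At 6 h the counts were 18 positive and 5 negative with a median of 0.18, and 0.0128% of genes were called. Of the members, 2 had an unadjusted p under 0.05, against 1647 of 15618 genes, and DESeq2 called 0. The 3 with the smallest p, none past the threshold, were Hyou1 (0.62 ± 0.23, adjusted p = 0.466), Sel1l (0.31 ± 0.14, adjusted p = 0.47) and Hsp90b1 (0.50 ± 0.25, adjusted p = 0.472; edgeR). Hyou1, a chaperone of the Hsp70 family, stood at 41.3, 45.1, 49.0 and 49.8 CPM with Egf and 31.7, 27.6 and 31.3 CPM with vehicle, which did not overlap. Egf 6 h replicates 1 and 3 and vehicle 6 h replicate 2 of heart hold kidney or hepatocyte markers, between 679 and 13858 CPM. Without the libraries that hold another organ, Hyou1 stood at 0.59, Hsp90b1 at 0.36 and Sel1l at 0.15. That fit still held hepatocyte markers, at 5817 CPM in Egf 6 h replicate 2 and 2830 CPM in vehicle 6 h replicate 3.

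In lung, 18 chaperone-arm genes were positive and 5 negative at 2 h (median 0.12; 0.84% of genes called), and 17 were positive and 6 negative at 6 h (median 0.04; 0% called). Unadjusted p under 0.05 was reached by 1 and 0 of them, against 1423 and 907 of 16778 genes. In the lung at 6 h, Egf replicate 3 held the highest value of its group in 21 of the 23 chaperone-arm genes, where it held the highest in 25.3% of all genes; it is the library with hepatocyte markers at 27314 CPM. The ligase Syvn1 (0.24 ± 0.12, adjusted p = 0.923, edgeR) was the chaperone-arm gene with the smallest p there. Its libraries stood at 40.7, 36.2, 50.6 and 45.5 CPM with Egf and 37.2, 32.0 and 40.3 CPM with vehicle, and without that replicate the difference was 0.17. In kidney, 19 were positive and 4 negative at 2 h (median 0.08; 0.256% of genes called), and 17 were positive and 6 negative at 6 h (median 0.06; 0% called). There 3 and 1 of them had an unadjusted p under 0.05 in edgeR, against 1224 and 986 of 15654 genes. DESeq2 called 0 of them at both times. Herpud1 of kidney at 6 h had the smallest p in the chaperone arm, with 359, 321, 344 and 270 CPM with Egf below 472, 383 and 390 CPM with vehicle (-0.36 ± 0.11, adjusted p = 0.5, edgeR). These groups did not overlap, yet the difference did not pass.

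In the Atf4 arm no gene passed against vehicle in any organ at either time by edgeR. The value nearest to the threshold was Atf4 itself in kidney at 2 h. Atf4 encodes the factor that gives the arm its name. The Egf kidneys stood at 61.4, 56.2, 52.1 and 62.6 CPM and the vehicle kidneys at 38.7, 39.8 and 42.5 CPM, without overlap, and the untreated kidneys at 36.5, 33.9 and 39.2 CPM. The log2 difference was 0.53 ± 0.11 (SE; adjusted p = 0.0587, edgeR). With RLE size factors it passed (adjusted p = 0.0438), as it did without Egf replicate 3 (0.0341) and with DESeq2 (0.000319). Its positive direction was found in all 4 organs at 2 h, which may come from the same mice. Lung stood at 0.55 ± 0.16 (adjusted p = 0.182), with 145, 152, 133 and 197 CPM against 112, 84.0 and 126 CPM and no overlap. Heart stood at 0.60 ± 0.16 (adjusted p = 0.311), with 24.99, 37.4, 38.9 and 36.5 CPM against 21.9, 25.9 and 20.5 CPM, where 1 Egf library lay within the vehicle range. Liver stood at 0.32 ± 0.16 (adjusted p = 0.384; edgeR). None of the 4 passed by edgeR, and at 6 h the values were 0.28, 0.05, 0.45 and 0.11 in heart, lung, kidney and liver.

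Kidney at 2 h gave the other 2 genes of this arm with the smallest p. Sesn2 stood at 72.5, 87.4, 66.5 and 71.1 CPM with Egf against 50.3, 34.4 and 58.5 CPM with vehicle (0.64 ± 0.14, adjusted p = 0.0841, edgeR; DESeq2 adjusted p = 0.0029). Ddit3 (CHOP), a factor tied to cell death under lasting stress, stood at 5.65, 6.13, 7.04 and 5.83 CPM against 3.69, 3.63 and 4.71 CPM (0.62 ± 0.18, adjusted p = 0.211, edgeR). Neither pair of groups overlapped, and neither passed by edgeR. Ddit3 overlaps Mars1, and reads of the 2 cannot be told apart without strand; the same holds for Syvn1 with Mrpl49, Manf with Rbm15b and Dcaf1, and Pdia6 with Atp6v1c2. At 6 h the Egf kidneys were on the other side of vehicle for Sesn2, at 46.6, 44.0, 38.4 and 46.9 CPM against 62.3, 62.7 and 62.5 CPM (-0.51 ± 0.14, adjusted p = 0.443, edgeR). The change of the Sesn2 effect from 2 to 6 h in kidney did not pass in edgeR but did without the filter on low counts (-1.13, adjusted p = 0.0446) and with DESeq2 (-1.17, adjusted p = 5.82e-05). Atf4 of kidney at 6 h stood at 39.5, 49.2, 38.3 and 42.1 CPM against 31.5, 27.4 and 33.7 CPM (0.45 ± 0.11, adjusted p = 0.401, edgeR), still without overlap; DESeq2 called it (adjusted p = 0.0386). Over the arm in kidney, 8 genes were positive and 2 negative at both times, with medians of 0.23 and 0.24 against -0.01 and 0.02 over all genes. At each time 3 genes of the arm had an unadjusted p under 0.05, against 1224 (2 h) and 986 (6 h) of 15654 genes.

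**Figure D3:**
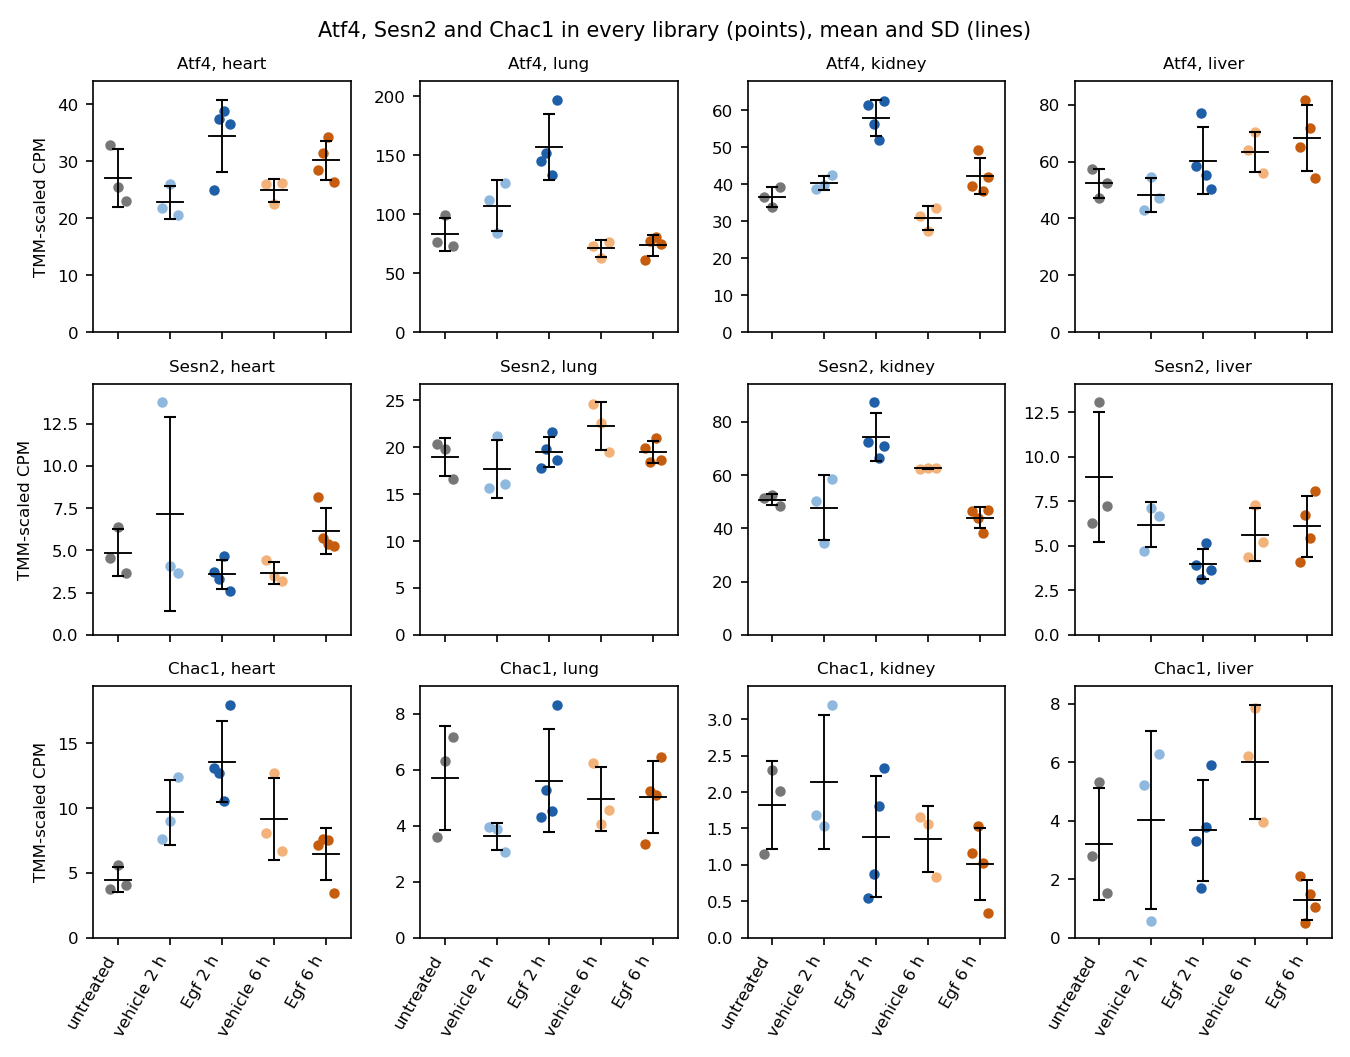
Level of Atf4, Sesn2 and Chac1 in every library, in CPM, by organ and group, with each group's mean and SD. In kidney at 2 h the Atf4 points with Egf sit between 52.1 and 62.6 CPM, above the vehicle points at 38.7 to 42.5 CPM; the high Sesn2 point of heart vehicle 2 h is the library at 13.8 CPM.

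In liver, the Atf4 arm was split at 2 h, with 5 positive and 4 negative of the 9 genes tested (median 0.22), 1 higher and 2 lower at an unadjusted p under 0.05, and 0 called by DESeq2. Over all genes 2001 of 13592 had such a p. Eif2ak3, the sensor kinase, stood at 10.5, 14.2, 18.3 and 19.2 CPM with Egf against 12.9, 8.85 and 8.45 CPM with vehicle, which overlapped (0.62 ± 0.22, adjusted p = 0.139, edgeR). Asparagine synthetase, Asns, stood at -1.36 ± 0.64 (adjusted p = 0.33) and Sesn2 at -0.64 ± 0.29 (adjusted p = 0.298). Trib3, a pseudokinase induced by Atf4 and Ddit3, stood at -0.78 ± 0.39, and the rest, Ddit3, Ppp1r15a, Chac1 and Psat1, lay between -0.13 and 0.65. None of these passed. At 6 h in liver, 7 were positive and 2 negative (median 0.13), and DESeq2 called 0. An unadjusted p under 0.05 was reached by 3 higher and 1 lower, against 1160 of 13592 genes. The glutathione-degrading enzyme Chac1 stood at 2.12, 0.481, 1.49 and 1.03 CPM with Egf, below all vehicle libraries at 6.21, 7.85 and 3.95 CPM (-2.23 ± 0.62, adjusted p = 0.313, edgeR). Ddit3 stood at 1.11, 1.82, 2.30 and 2.45 CPM against 0.715, 1.28 and 0.433 CPM, which overlapped (1.26 ± 0.35, adjusted p = 0.308). Psat1, a serine synthesis enzyme, stood at 2.17, 3.85, 1.62 and 5.16 CPM against 1.21, 1.47 and 0.920 CPM, without overlap (1.43 ± 0.44, adjusted p = 0.375). These 3 genes are low in liver, and none passed.

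Heart and lung gave no call in the Atf4 arm. In heart at 2 h, 5 genes were positive and 5 negative (median 0.14), with 3 higher and 1 lower at an unadjusted p under 0.05 in edgeR and 0 called by DESeq2. Over all genes 1193 of 15618 had such a p. Ddit3 stood at 4.52, 6.59, 4.53 and 5.38 CPM with Egf against 3.38, 3.61 and 3.99 CPM with vehicle (0.52 ± 0.18, adjusted p = 0.513, edgeR). The eIF2 phosphatase subunit Ppp1r15a (GADD34) stood at 0.79 ± 0.29 (adjusted p = 0.607); neither pair of groups overlapped. At 6 h, 8 were positive and 2 negative (median 0.29 against 0.02 over all genes), and DESeq2 called 0. At an unadjusted p under 0.05 there were 0 of them, against 1647 of 15618 genes. Egf 6 h replicate 4 stood at 18.1 CPM in Phgdh, with the other Egf hearts at 3.10 to 4.74 and vehicle at 3.17 to 3.41 CPM. In Psat1 it stood at 17.9 CPM, with the other Egf hearts at 5.66 to 9.68 and vehicle at 4.79 to 13.2 CPM. The part of this library in the median was not tested. In lung at 2 h all 10 genes were positive (median 0.12 against -0.000809 over all genes), with 2 at an unadjusted p under 0.05, Atf4 and Chac1, and 0 called by DESeq2. Over all genes 1423 of 16778 had such a p. Neutrophil markers, 6 of 6 detected, were 109.9 to 244 CPM in these Egf lungs and 67.2 to 108 CPM in the vehicle lungs, without overlap, and hepatocyte markers 387 to 3386 and 5.67 to 572 CPM; their part in the result was not tested. Chac1 stood at 4.30, 5.28, 4.53 and 8.31 CPM with Egf, above 3.94, 3.86 and 3.05 CPM with vehicle (0.63 ± 0.29, adjusted p = 0.547, edgeR). At 6 h, 6 were positive and 4 negative, 1 had an unadjusted p under 0.05, against 907 of 16778 genes, and DESeq2 called 0. Psat1 of lung at 6 h stood at 35.2, 39.4, 28.1 and 65.6 CPM against 22.9, 29.4 and 21.7 CPM (0.77 ± 0.24, adjusted p = 0.894, edgeR), with 1 overlapping library. Sesn2 of lung stood at -0.19 ± 0.13 (adjusted p = 0.956). Between 2 and 6 h the Egf effect changed for 0 members in heart (0.0128% of genes called), lung (0.0417%) and kidney (0.0192%) by edgeR. At an unadjusted p under 0.05 these counts were 3, 2 and 4 members, and DESeq2 called 0, 0 and 2, the 2 in kidney being Sesn2 and Herpud1 (-0.63, adjusted p = 0.0323). Over all genes the unadjusted counts were 662 of 15618, 962 of 16778 and 1021 of 15654, and DESeq2 called 22, 49 and 51.

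Other genes of the same pathways were read from 2 lists. Of 27 further Atf4-arm genes (24 to 26 tested per organ), edgeR called 1 in kidney and 4 in liver at 2 h in the comparison of Egf with vehicle, and none in its other organs and times. That is 1 of 25 tested in kidney and 4 of 24 in liver, where 0.256% and 3.92% of all genes were called. In kidney the amino acid transporter Slc7a5 rose, from 5.53 ± 0.651 to 10.9 ± 1.21 CPM (SD, n = 3 vehicle and n = 4 Egf; log2 0.97 ± 0.17 SE, adjusted p = 0.0297). In liver the factors Atf3 and Cebpb rose, Atf3 from 2.34 ± 2.16 to 25.5 ± 7.79 CPM (3.42 ± 0.46, adjusted p = 0.000188) and Cebpb from 43.3 ± 6.78 to 101 ± 17.7 CPM (1.22 ± 0.21, adjusted p = 0.00191; edgeR). Both are also known as immediate early genes of other pathways. The stress cytokine Gdf15 fell, from 5.37 ± 2.86 to 1.57 ± 0.615 CPM (-1.77 ± 0.35, adjusted p = 0.00535), and the transporter Slc38a2 fell from 69.7 ± 11.02 to 45.1 ± 2.15 CPM (-0.63 ± 0.15, adjusted p = 0.0154; edgeR). The liver list was thus split, 2 higher and 2 lower. Of 24 further chaperone-arm genes, all tested, 1 passed against vehicle in any organ and time, in liver at 2 h (3.92% of all genes): Creb3l2, a membrane-bound factor related to Atf6, rose from 14.6 ± 3.23 to 32.6 ± 7.14 CPM (1.16 ± 0.22, adjusted p = 0.00358, edgeR). In the comparisons of Egf with vehicle without a call, 1 to 5 of the Atf4-arm list and 1 to 4 of the chaperone-arm list had an unadjusted p under 0.05, and DESeq2 called 1 of the former in heart and in lung at 2 h and in kidney at 6 h. Over all genes, from 907 of 16778 (lung, 6 h) to 1647 of 15618 (heart, 6 h) had such a p.

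The vehicle libraries were set against the untreated ones, since Herpud1 of liver had stood highest after vehicle. Injection, anaesthesia and the hours that followed cannot be told apart in this comparison. Herpud1 rose in kidney at 2 h, with 502, 560 and 540 CPM after vehicle against 287, 277 and 244 CPM in untreated mice, without overlap. The log2 difference was 0.99 ± 0.12 (SE; adjusted p = 0.00242, edgeR), and it passed without any 1 of the 6 libraries, where 0.0256% of genes were called and 0.0128% called higher. In kidney at 6 h it was higher at 472, 383 and 390 CPM (0.63 ± 0.12, adjusted p = 0.0392), a call lost without any 1 of the 6 libraries (adjusted p = 0.0513 to 0.312) and with the replicate block (0.0951); 0.211% of genes were called there and 0.147% called higher. In liver at 2 h it rose as well (1.26 ± 0.20, adjusted p = 0.0157, edgeR; 0.155% of genes called, 0.0736% higher), from the library values given above. That call was lost without untreated replicate 1 (adjusted p = 0.109) or 3 (0.0861) or vehicle replicate 2 (0.0959) or 3 (0.0559). It did not pass in liver at 6 h (0.47, adjusted p = 0.326), in lung (0.24 at 2 h and 0.45 at 6 h) or in heart (0.12 and 0.65). In heart at 6 h the vehicle libraries nevertheless stood at 359, 377 and 354 CPM, above untreated values of 254, 193 and 247 CPM (adjusted p = 0.137, edgeR; DESeq2 adjusted p = 0.00102). Thus the log2 differences of Herpud1 were positive in all 8 comparisons of vehicle with untreated, and 3 passed. The 2 h and 6 h comparisons of an organ share their untreated libraries, and the organs may come from the same mice.

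The Egf and untreated comparisons share their vehicle libraries, so the values of Herpud1 are given side by side. In kidney at 2 h the Egf libraries stood at 573, 681, 663 and 630 CPM, all above the vehicle and untreated ones. In liver at 2 h the Egf libraries lay between the untreated and the vehicle ones. Herpud1 also fell in liver between the vehicle groups of 2 and 6 h, by 0.79 ± 0.20 (log2, SE; adjusted p = 0.0495, edgeR), where 1.55% of genes were called and 0.515% called lower. That call was lost without any 1 of the 6 libraries (adjusted p = 0.0704 to 0.187). No member passed between the vehicle times in heart (0.0384% of genes called), lung (0.441%) or kidney (0.179%). At an unadjusted p under 0.05 these organs had 6, 4 and 6 members in edgeR, and DESeq2 called 1, 1 and 0: Herpud1 in heart (0.54, adjusted p = 0.0342) and Atf4 in lung (-0.60). Over all genes the unadjusted counts were 834 of 15618, 1605 of 16778 and 1149 of 15654, and DESeq2 called 66, 298 and 124.

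**Figure D4:**
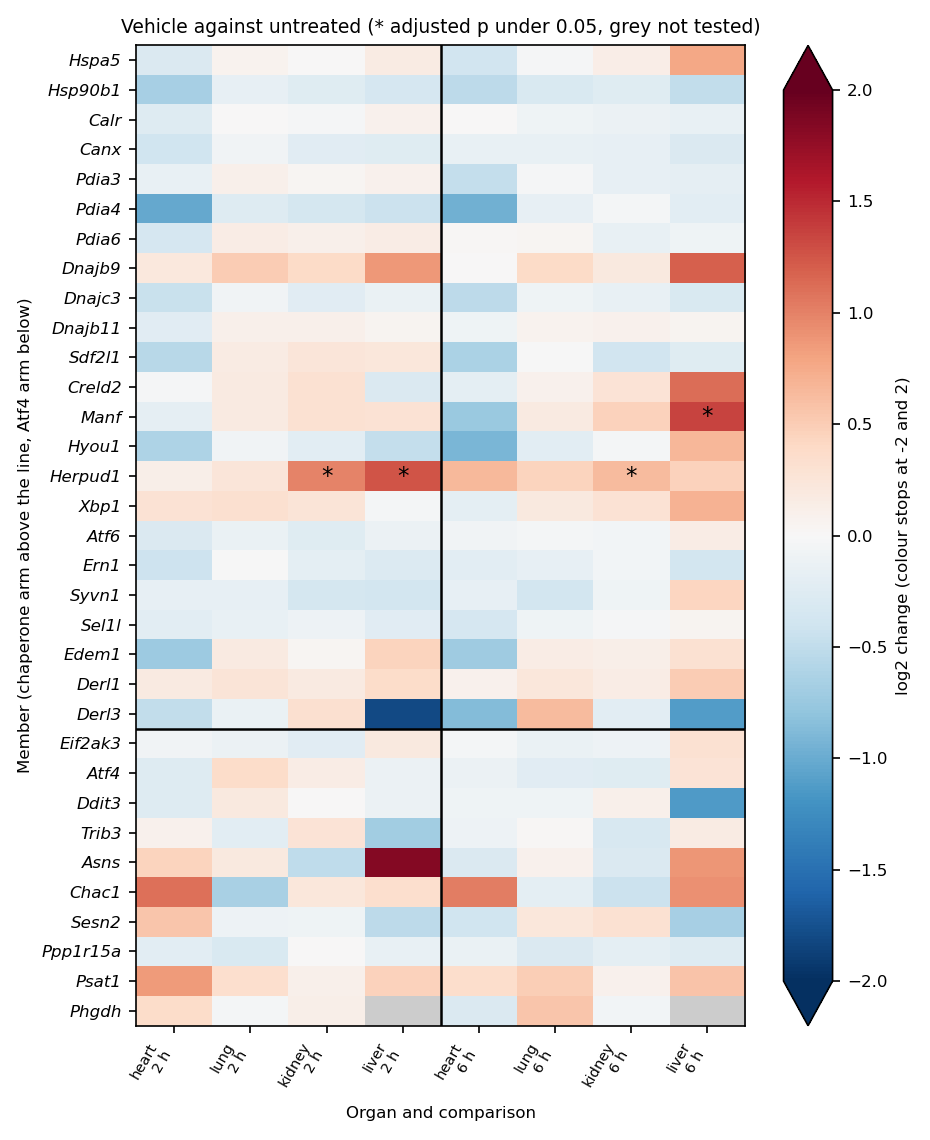
Log2 difference, vehicle minus untreated, of the 33 genes (rows, by arm) in the 4 organs at 2 h and then 6 h (columns), with stars at an adjusted p under 0.05 and grey for a gene not tested. The stars are Herpud1 in kidney at both times and in liver at 2 h, and Manf in liver at 6 h.

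In liver at 6 h after vehicle, Manf rose over untreated liver. Manf encodes a small secreted protein of the reticulum that binds Hspa5. The vehicle livers stood at 130, 250 and 94.1 CPM and the untreated ones at 81.2, 58.2 and 46.5 CPM, without overlap (1.35 ± 0.29, SE; adjusted p = 0.0328, edgeR; 0.67% of genes called, 0.361% higher). It did not pass without the filter on low counts (adjusted p = 0.0581), nor without untreated replicate 2 (0.125) or 3 (0.129) or vehicle replicate 1 (0.0634) or 2 (0.84 log2, adjusted p = 0.182). Of the 23 chaperone-arm genes, 7 had an unadjusted p under 0.05, all with positive differences, while 13 were positive and 10 negative. Over all genes 1745 of 13592 had such a p, in either direction. DESeq2 called 285 of all genes and 3 members: Manf, Hspa5 and Dnajb9. Hspa5 stood at 916, 1277 and 817 CPM after vehicle against 595, 581 and 580 CPM (0.78 ± 0.22, adjusted p = 0.123, edgeR), and at 1065, 1161, 1096 and 1391 CPM after Egf at 6 h. Dnajb9 stood at 170, 114 and 73.3 CPM against 59.0, 60.8 and 36.0 CPM (1.199 ± 0.29, adjusted p = 0.0632, edgeR). All 3 vehicle libraries were above all untreated ones in both genes. Vehicle 6 h replicate 2 held the highest value of its group in 16 of 23 chaperone-arm and 8 of 9 Atf4-arm genes, against 37.1% of all genes, and it is the library without which the Manf difference stood at 0.84; its part in the other genes was not tested.

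No other member passed against untreated. In the Atf4 arm edgeR called 0 in every organ and at both times. The count at an unadjusted p under 0.05 was at most 2 of the genes tested, and DESeq2 called 1, Chac1 in heart at 2 h (1.11, adjusted p = 0.0349). Over all genes the unadjusted count ran from 1113 of 15654 (kidney, 6 h) to 2532 of 15618 (heart, 2 h). In lung, 0.0656% of genes were called at 2 h and 0.101% at 6 h, and no member. There 2 and 4 chaperone-arm genes had an unadjusted p under 0.05, and DESeq2 called 1 and 0, the 1 being Dnajb9. Over all genes 2047 and 1645 of 16778 had such a p, and DESeq2 called 201 and 144. In heart, 0.0128% of genes were called at 2 h and 0.0192% at 6 h. There 19 of the 23 chaperone-arm genes had a negative difference at 2 h (median -0.28) and 18 at 6 h (median -0.21), against all-gene medians of 0.01 and -0.02. None passed by edgeR, 8 were at an unadjusted p under 0.05 at each time (all lower at 2 h, 7 lower and 1 higher at 6 h), and DESeq2 called 0 and 5 (Dnajc3, Hyou1, Manf and Pdia3 lower, Herpud1 higher). Over all genes 2532 and 1456 of 15618 had such a p, and DESeq2 called 526 and 125. Hepatocyte markers, 8 of 8 detected in heart, summed to 15539, 1169 and 13396 CPM in untreated replicates 1, 2 and 3, to 38.4 to 99.0 CPM in the vehicle libraries at 2 h and to 407 to 2830 CPM in those at 6 h. Replicates 1 and 3 held the highest value of the untreated group in 16 and 7 of the 23 chaperone-arm genes, and replicate 2 the lowest in 19, against 30.1%, 35.2% and 36.6% of all genes. The part of these markers in the values was not tested. Without those libraries no untreated heart remained to compare.

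Between the untreated organs every member differed (adjusted p = 0.0105 at most, edgeR), as did 90.5% of all genes, so the order of the organs is what distinguishes the 2 arms. Levels here are per kilobase of gene length (CPM per kb, mean ± SD, n = 3 per organ). Liver stood highest in 21 of the 23 chaperone-arm genes, while it was highest in 24.2% of all genes tested. It passed the test against the second organ in 18 of them. The share of all genes in which liver did so was not computed. Of 18736 genes, 10567 (kidney) to 13305 (lung) differed between untreated liver and another organ, in either direction. The counts of members by highest organ were the same with RLE size factors. The calcium-binding chaperone Calr was the most abundant in liver, at 467 ± 115, ahead of Pdia3 at 239 ± 45.1 and Hspa5 at 219 ± 1.97. Hspa5 of heart stood at 194 ± 37.5, not below liver by the test (adjusted p = 0.391), and that of kidney and lung at 95.5 ± 7.17 and 73.4 ± 2.75. Xbp1 stood at 140 ± 25.04 in liver and between 48.6 and 59.5 in the other 3 organs, where no neighbours in the order passed against each other. Herpud1 stood at 187 ± 23.2 in liver, 110 ± 14.8 in heart, 100.06 ± 7.47 in kidney and 54.3 ± 5.76 in lung; heart and kidney did not pass against each other. The ratio of the highest to the lowest organ was 14.7 for Derl3, 10.1 for Edem1 and 5.83 for Pdia4, all with liver highest and heart lowest. Derl3 of heart was near the floor, at 0.310 ± 0.0909, and did not pass against kidney (adjusted p = 0.4, edgeR). The heart levels come from the 3 libraries that hold another organ: Edem1 stood at 51.5 and 49.4 CPM in replicates 1 and 3, with the high hepatocyte markers, and at 22.7 CPM in replicate 2. The part of the other organ's RNA in the heart levels and in these ratios was not tested. For Atf6 and Dnajb9 heart was highest, at 12.6 ± 0.893 and 37.8 ± 4.07, not beyond liver at 9.75 ± 2.63 and 32.1 ± 8.21 (adjusted p = 0.109 and 0.329). For Canx and Manf, too, the highest organ, liver, did not pass against the second (adjusted p = 0.652 and 0.0976). The median of all genes stood 0.15 to 0.23 (log2) lower in liver than in the other organs.

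The Atf4 arm had no common organ. Of all genes tested, kidney was highest in 22.1%, lung in 29.3%, liver in 24.2% and heart in 24.4%. Here too, the share of all genes beyond their second organ was not computed. Kidney was highest in 4 genes, all beyond the second organ: Phgdh, the first enzyme of serine synthesis, at 17.4 ± 0.487, Psat1, the second, at 14.6 ± 2.62, Sesn2 at 12.7 ± 0.430 and Eif2ak3 at 5.14 ± 0.483. In liver the serine enzymes were near the floor, Phgdh at 0.144 ± 0.0413 and Psat1 at 0.300 ± 0.0993, which makes the kidney level 120.5 and 48.8 times that of liver. Lung was highest in 3 genes and beyond the second organ in 1 of them, Ppp1r15a at 6.62 ± 0.878. Asns stood at 6.25 ± 0.417 in lung, 4.33 ± 1.202 in kidney, 1.18 ± 0.337 in heart and 0.243 ± 0.0649 in liver, and lung did not pass against kidney (adjusted p = 0.273). Ddit3 stood at 3.91 ± 0.472 in lung and lowest in liver at 1.62 ± 0.281; lung did not pass against heart (adjusted p = 0.0582). Liver was highest in Atf4, at 35.1 ± 3.19 against 22.8 ± 3.82 in lung, and in Trib3, at 6.17 ± 3.49 against 2.73 ± 0.144. Chac1 stood at 3.08 ± 1.85 in liver and 3.05 ± 0.714 in heart, which did not pass against each other. By group means, the mRNA of the factor Atf4 was highest in liver, and the other genes of its arm were divided there. Asns, Psat1, Phgdh, Ddit3 and Ppp1r15a were lowest in liver, Trib3 and Chac1 were highest, and Sesn2 and Eif2ak3 lay in between. Leaving out replicate 1 in every organ left 32 of the 33 called.

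**Figure D5:**
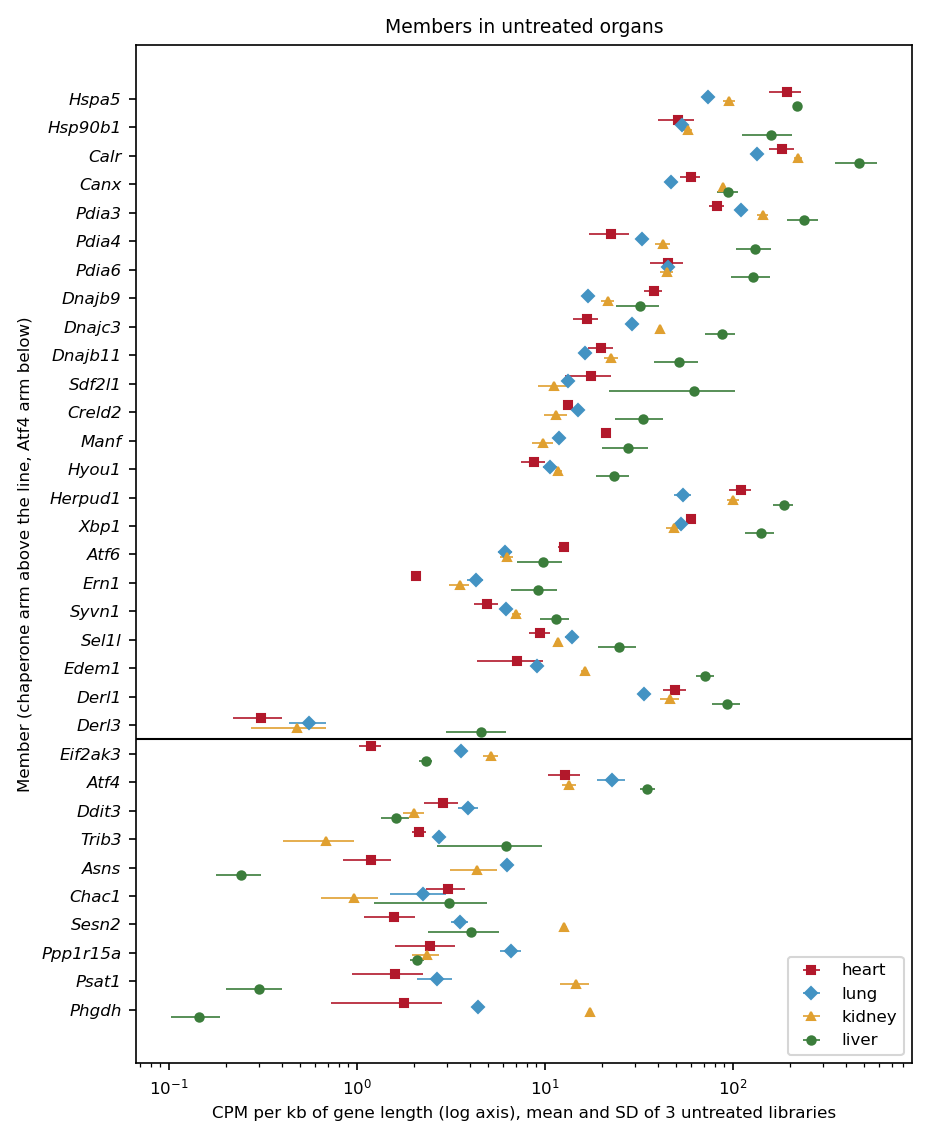
Level of the 33 genes in untreated heart, lung, kidney and liver, in CPM per kilobase on a log axis, as mean and SD of 3 libraries per organ, with the arms apart. Liver is the highest point in most chaperone-arm genes, and in the Atf4 arm Phgdh and Psat1 span the widest range, from liver at 0.144 and 0.300 to kidney at 17.4 and 14.6.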

How the data were processed

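Polyadenylated RNA of 68 mouse organ samples was sequenced from non-directional libraries, per the labels' protocols. The authors deposited 1 table of raw read counts per gene. The submitters' processing notes name HISAT2 2.0.5, featureCounts 1.5.0-p3 and the genome build mm39. How reads were trimmed, which counting options were set and which annotation release was used was not given in the sources used here. Gene lengths came from the same deposited table.

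From these counts, edgeR 4.0.16 (R 4.3.3) was fitted per organ over its 17 libraries and 5 groups, with TMM scaling, filterByExpr and the robust quasi-likelihood test. Benjamini-Hochberg adjustment ran over the genes tested in that organ (15618 in heart, 16778 in lung, 15654 in kidney, 13592 in liver), and adjusted values under 0.05 were calls. Differences among organs were tested in 1 fit of all 68 libraries (18736 genes), with no term for the mouse. Standard errors were taken from the fitted change and its F value. Levels of genes are TMM-scaled CPM, and group levels carry the SD over libraries. Marker sums are CPM of the plain total. The scripts were tested on simulated data.

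Members and lists (further pathway genes, markers of organs and of plasma, pancreatic acinar, adrenal, fat, neutrophil and red cells) were chosen with earlier results of these data known. Values in every library are given for members called against vehicle, and otherwise for up to 3 with the smallest p, said not to pass; other comparisons name up to 6 called members, and the further lists up to 3 called genes each in a comparison of Egf with vehicle; Slc38a2 falls outside that rule and was named after its values were seen. Overlap between groups is described for named genes only, many of them picked by a small p. The share of all genes without overlap was not computed, so lack of overlap is no test beside the p-value. Ddit3 has 2 rows in the table, and the one without reads was left out. No 2 libraries of a group agreed within sampling noise (lowest chi-square per degree of freedom 7.064).

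Alternatives were DESeq2 1.42.0, scaling by RLE, testing every gene with a read, the replicate number as a block, fits of the compared groups alone, the fit without the 8 libraries that hold another organ, and leaving out each library in turn. Same-numbered libraries deviated together, with every pair's correlation over 0.1, only between vehicle 6 h and untreated in heart (lowest 0.295) and lung (0.112); the labels state no pairing.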

Additional observations from a re-analysis of the deposited data

Results flagged for a closer look

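The change of the Egf effect on Xbp1 in liver from 2 to 6 h, -1.72 ± 0.31 (log2, SE; adjusted p = 0.00665, edgeR), is given for a closer look because the effects at the 2 times differed by a test of the difference itself. The 4 Egf livers were all above vehicle at 2 h, and at 6 h the groups overlapped.

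Among organs at 2 h the Egf effect differed for Herpud1 (adjusted p = 0.000137), Xbp1 (adjusted p = 0.00148) and Sesn2 (adjusted p = 0.0154; edgeR), again by a test of the difference itself. Herpud1 had a log2 difference of -0.90 in liver and of -0.02 to 0.25 in the other 3 organs. Xbp1 ranged from 0.05 in heart to 1.49 in liver, and Sesn2 from -0.997 in heart to 0.64 in kidney. Each of the 3 calls was lost when some replicate number was left out. The Sesn2 value of heart rests on a single vehicle library with kidney tubule markers, and Sesn2 did not pass without the libraries that hold another organ.

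The 3 members with the smallest p in each comparison of Egf with vehicle were checked for a library far from its Egf group. Of these groups of 4 libraries, 2 had one. Derl3 in liver at 2 h, with its high Egf replicate 2, was not among the members checked. Atf4 in heart at 2 h stood at 24.99 CPM in replicate 1 against 36.5 to 38.9 CPM in the rest, and Sel1l in heart at 6 h stood at 76.8 CPM in replicate 1 against 69.1 to 70.1 CPM. Chance flags about 1 in 20 groups, and neither gene passed the test against vehicle.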

How the results depend on the processing

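The call of Xbp1 and Herpud1 in liver at 2 h was kept under every alternative run, and no result changed direction. Over these alternatives 279 counts of members called were within 1.5 times the value given and 45 were not; of the values of single named members, 357 kept their side of the threshold, 28 lost their call and 7 gained one. DESeq2 gave the higher counts of members called against vehicle: 1 in lung and 2 in kidney at 2 h and 1 in kidney at 6 h, all 0 by edgeR. For the change of the Egf effect it called 2 in kidney (0 by edgeR) and 2 in liver (1), where it called 51 and 373 of all genes. Against untreated, DESeq2 called 1 in heart and 1 in lung at 2 h, 5 in heart at 6 h (0 each by edgeR) and 3 in liver at 6 h (1). Between the vehicle times it called 1 in heart, 1 in lung (0 each) and 6 in liver (1: Herpud1 lower, with Creld2, Hyou1, Manf, Syvn1 and Xbp1 added). In that liver comparison it called 481 of all genes. RLE size factors gave 1 in kidney at 2 h, Atf4. Without the filter on low counts the counts were 1 for the change of the effect in kidney, 0 for liver vehicle 6 h against untreated and 2 between the vehicle times in liver.

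With the replicate block, liver at 2 h had 4 members called, adding Hsp90b1 (-0.54, adjusted p = 0.0474) and Pdia4 (-0.53, adjusted p = 0.0482), liver vehicle 6 h against untreated had 2, and kidney vehicle 6 h against untreated had 0; the block changed no other count of members. The numbers are not known to pair the samples: outside heart and lung vehicle 6 h and untreated, the lowest correlation of same-numbered libraries was -0.536 to 0.063.

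Leaving out 1 library gave 0 to 1 members in kidney at 2 h (Atf4, without Egf replicate 3), 0 to 1 for the change of the effect in kidney (1 without replicate 3 of Egf or of vehicle at 2 h), 1 to 2 for that in liver (2 without vehicle 6 h replicate 2), 0 in kidney vehicle 6 h against untreated, 0 to 1 in liver vehicle 2 h and 0 to 2 in liver vehicle 6 h against untreated, and 0 to 2 between the vehicle times in liver (2 in both without vehicle 6 h replicate 3). Among organs at 2 h, leaving out a replicate number gave 1 to 2 of the 3 (1 without replicate 2). At 2 h against vehicle, edgeR called 33, 141, 40 and 533 genes (heart, lung, kidney, liver), DESeq2 101, 322, 168 and 755, fits of the compared groups alone 8, 64, 1 and 597, and the replicate block 19, 75, 4 and 764. At 6 h edgeR called 2, 0, 0 and 12, and DESeq2 20, 10, 37 and 65. The cause was not tested. With 3 or 4 libraries a group, and members such as Chac1, Asns, Psat1 and Derl3 at few CPM in liver, a value that missed the threshold does not show that the groups were alike. Heart vehicle against untreated could not be fitted without the libraries that hold another organ, and liver and kidney have none to leave out.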
